A study of Homo sapiens with 15 samples.

Results

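The protocadherin genes that lie outside the large clusters, PCDH1, PCDH7, PCDH9, PCDH10, PCDH17 and PCDH18, and the connexin genes GJA1 (Cx43), GJB2 (Cx26) and GJC1 (Cx45) were followed through 2 active histone marks in breast cancer cells. H3K4me3, a mark of active promoters, was counted in peaks within 2 kb of a transcription start of these 9 genes, and H3K27ac, found at both active promoters and active enhancers, in peaks within 100 kb whose nearest protein-coding start belonged to one of them. This gave 9 of 22572 H3K4me3 peaks and 28 of 62195 H3K27ac peaks. All 3 lines descend from MDA-MB-231, a triple-negative, claudin-low human breast cancer cell line. Par is the parental line, LM2 a sub-population selected in mice for growth in lung, and BrM2 one selected for growth in brain. The labels name no treatment, all lines were grown as monolayers with 10% serum for 3 days, and each line had 2 replicate libraries per mark. The study's methods call the replicates biological, without saying for this assay whether they came from separate passages. The p-values measure the spread between these libraries. Each sub-population was derived from this one cell line, so the comparisons concern these lines and not lung or brain metastases in general.

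Protocadherins are cadherin-related membrane proteins that bind their like on neighbouring cells and are best known from the developing brain. The δ1 members PCDH1, PCDH7 and PCDH9 share a conserved motif that binds protein phosphatase PP1, whereas δ2 members such as PCDH10, PCDH17 and PCDH18 can recruit the WAVE complex, a regulator of actin. Connexins assemble into gap junction channels that pass ions and small molecules between cells. PCDH7 and Cx43 have been linked in brain metastasis, where they were described to join cancer cells to astrocytes and to let the second messenger cGAMP cross.

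Sequences of the regions that the comparisons turn on are shown first. RefSeq (GRCh38.p14) held promoter windows for 7 of the 9 genes, and each matched hg19 exactly, so hg19 coordinates are given throughout. The printed promoters stop before the first annotated base of the gene. PCDH17 held the H3K4me3 peak that was called in BrM2, GJB2 lay in a stretch of chromosome 13 that differed between LM2 and BrM2, and GJA1 is the Cx43 gene. Capitals mark a GC box (GGGCGG) or an AP-1 site (TGANTCA), read on both strands, which cannot overlap each other. The TATA box (TATAAA) was searched as well.
PCDH17, chr13:58205628-58205877, plus strand: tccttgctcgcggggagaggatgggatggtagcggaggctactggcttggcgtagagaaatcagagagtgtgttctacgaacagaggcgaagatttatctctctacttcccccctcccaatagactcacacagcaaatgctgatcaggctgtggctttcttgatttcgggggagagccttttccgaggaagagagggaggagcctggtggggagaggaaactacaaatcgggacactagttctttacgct
GJB2, chr13:20767078-20767327, minus strand: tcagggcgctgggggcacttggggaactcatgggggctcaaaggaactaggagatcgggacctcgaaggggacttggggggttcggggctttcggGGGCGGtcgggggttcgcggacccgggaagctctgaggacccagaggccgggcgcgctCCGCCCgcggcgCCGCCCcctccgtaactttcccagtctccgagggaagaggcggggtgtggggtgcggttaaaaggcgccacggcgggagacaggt
GJA1, chr6:121756542-121756740, plus strand: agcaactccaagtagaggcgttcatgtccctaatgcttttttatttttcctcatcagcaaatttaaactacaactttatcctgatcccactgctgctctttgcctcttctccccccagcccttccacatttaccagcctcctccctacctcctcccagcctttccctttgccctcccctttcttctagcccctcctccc
GJA1 around the AP-1 match, chr6:121756734-121756760, plus strand: tcctcccagtTGAGTCAgtggcttgaa

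The GJB2 promoter held 3 GC boxes in its 300-base RefSeq window (250 bases before to 50 after the start), and PCDH1 and PCDH9 held 2 each. The windows of PCDH7, PCDH17, PCDH18 and GJA1 held none. A GC box stood in 45.0% of all 35116 RefSeq windows of this length. The AP-1 site occurred in GJA1 alone among the 7 windows, 41 bases before the RefSeq start, against 7.71% of all windows. It began at chr6:121756744, just inside the GENCODE gene, which starts at chr6:121756741. No window of the 7 held the TATA box, which 11.5% of all windows did. GC content ran from 47.0% in GJA1 to 71.7% in GJB2, and the ratio of observed to expected CpG from 0.22 to 0.87 in the same genes. The window of PCDH1 lay at chr5:141249143-141249442, outside its H3K4me3 peak, and that of GJA1 overlapped its peak in part, while the other 5 lay inside one. These matches describe letters and do not show that a factor was bound.

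Central 300-base windows of the called H3K27ac peaks of PCDH7 and PCDH10 are shown for the same reason. Both peaks lay in introns.
PCDH7, chr4:30757105-30757404, plus strand: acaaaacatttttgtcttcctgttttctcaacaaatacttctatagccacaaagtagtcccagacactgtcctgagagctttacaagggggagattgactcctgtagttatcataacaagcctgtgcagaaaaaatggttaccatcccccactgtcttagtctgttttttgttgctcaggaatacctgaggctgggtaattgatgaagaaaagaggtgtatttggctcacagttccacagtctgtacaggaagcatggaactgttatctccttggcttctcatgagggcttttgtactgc
PCDH10, chr4:134109124-134109423, plus strand: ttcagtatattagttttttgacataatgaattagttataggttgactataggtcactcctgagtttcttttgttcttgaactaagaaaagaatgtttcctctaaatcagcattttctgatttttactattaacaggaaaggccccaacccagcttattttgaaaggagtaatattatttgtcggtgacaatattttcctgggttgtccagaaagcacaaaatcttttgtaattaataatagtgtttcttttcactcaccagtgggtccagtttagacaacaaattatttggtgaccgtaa
The searched motifs occurred in neither window. In the central windows of all H3K27ac peaks, the AP-1 site stood in 14.1%, the GC box in 17.6% and the TATA box in 17.4%. The GC content was 42.7% for PCDH7 and 32.7% for PCDH10.

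Most of these genes stand far from other genes. The nearest start of another protein-coding gene was 3699.1 kb from the start of PCDH7, 2878.0 kb from PCDH9, 1052.5 kb from PCDH10, 690.8 kb from PCDH18 and 464.5 kb from PCDH17, against a median of 16.8 kb over all protein-coding genes. The connexins were closer to their neighbours, at 100.8 kb for GJA1, 31.9 kb for GJB2 and 15.5 kb for GJC1, and PCDH1 was 44.6 kb from the next start. PCDH9 spans 927.6 kb and PCDH7 spans 426.4 kb. Each of the genes had its nearest H3K4me3 peak at its start except GJC1, which had none within 2 kb and whose nearest, 25287 bp away, lay by ADAM11. PCDH10 had 2 peaks, of which one overlapped the start and the other ended 1598 bp upstream.

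Total counts in peaks ran from 3489607 to 9839629 for H3K4me3 and from 1994996 to 6450028 for H3K27ac. CPM below are counts per 1000000 counts in the peaks of a library, whereas log2 fold changes and standard errors (SE) come from a DESeq2 fit over all peaks with adjusted p from the Benjamini-Hochberg method. Replicate numbers were shared by the lines and paired the libraries, so a second fit took the number as a block. Its adjusted p is given wherever it changed a call at a named peak of the 9 genes. For the other gene lists its calls are mostly given as counts. That fit left 2 residual degrees of freedom in place of 3, so its small adjusted p rest on few libraries. In each line the deeper library was replicate 2 for H3K4me3 and replicate 1 for H3K27ac. The block thus cannot be told apart from depth. Counts came from bulk chromatin, in which a mark in fewer cells and a weaker mark in every cell cannot be told apart. The claudin-low label was checked on promoter peaks: VIM, CD44, ZEB1 and FN1 had one in 4 of 4, with summed CPM of 629 to 670 in Par, 638 to 648 in LM2 and 632 to 661 in BrM2. None of these 4 was called by DESeq2 or edgeR in the fit by line. With the replicate block ZEB1 was lower in BrM2 than in Par (adjusted p = 0.00278) and LM2 (0.00144). CD44 was higher in BrM2 than in Par with the block (adjusted p = 0.04), and VIM and FN1 were not called. All 5 epithelial markers also had a promoter peak (KRT8 and KRT18 share one), with summed CPM of 232 to 244 in Par, 161 to 176 in LM2 and 245 to 258 in BrM2. KRT19 had 51.8 to 130 CPM, the shared keratin peak 59.2 to 101, EPCAM 22.9 to 52.0 and the E-cadherin gene CDH1 2.01 to 8.03 CPM. None of the 5 was called by DESeq2 or edgeR, where 1 had an unadjusted p under 0.05 in each comparison. With the replicate block EPCAM was higher in LM2 (adjusted p = 0.0239) and BrM2 (2.38e-04) than in Par, and KRT19 was lower in LM2 than in Par (2.65e-12) and BrM2 (9.01e-08). After chromosome medians were removed KRT19 was called as well in LM2 against Par, at -1.10 (adjusted p = 0.0231). The luminal genes ESR1, PGR and GATA3 each had one, and ESR1 rose from 6.88 and 7.15 CPM in Par to 39.5 and 38.3 CPM in LM2 and 24.2 and 20.2 CPM in BrM2 (adjusted p = 1.06e-06 and 0.00686). PGR had 7.74 and 9.38 CPM in Par, 1.15 and 5.29 CPM in LM2 and 18.8 and 20.5 CPM in BrM2, and was called in BrM2 against LM2 (2.50 ± 0.54, adjusted p = 4.33e-04). GATA3 had 8.03 to 40.7 CPM and was not called. With the block PGR (adjusted p = 0.0277) and GATA3 (0.00666) were lower in LM2 than in Par, PGR was higher in BrM2 than in Par (0.0367), and in BrM2 against LM2 GATA3 was higher (0.0108) and ESR1 lower (0.00172). The luminal median was below 0 in LM2 against Par, and 1.14 and 0.86 in BrM2 against Par and LM2. Of the lung alveolar genes, SFTPB had no promoter peak. SFTPC had a peak within 2 kb of an annotated start, at chr8:22021809-22024038, with 53.0 to 80.2 CPM. Starts of other genes in that peak were not examined, so it cannot be read as an active SFTPC promoter. Immune genes PTPRC and CD3E and the endothelial gene CDH5 had no promoter peak. Of the astrocyte genes, GFAP had 2.30 to 9.53 CPM, and AQP4 rose from 0.573 and 1.64 CPM in Par to 4.59 and 8.13 in LM2 and 16.8 and 10.3 in BrM2 (adjusted p = 0.022 and 5.08e-05). The astrocyte pair summed to 4.01 and 11.2 CPM in Par, 6.89 and 17.5 CPM in LM2 and 19.4 and 17.9 CPM in BrM2, and the part of these epithelial, luminal and astrocyte genes in the results below was not tested.

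H3K4me3 marked the promoters at very different levels. Per kb of peak and averaged over the 6 libraries, GJB2 had 32.9 CPM, PCDH9 23.1, PCDH1 16.8, PCDH7 15.9 and GJA1 10.3 CPM per kb. PCDH18 and PCDH17 followed with 7.51 and 7.13 CPM per kb, and the PCDH10 peaks had 3.34 at the start and 3.07 upstream. The median over all 13982 promoter peaks was 23.4 CPM per kb, so that GJB2 stood at percentile 71.4 and PCDH10 at percentiles 7.1 to 8.1. The peak over PCDH7 was among the longest, 5689 bp at percentile 97.5 of promoter peak length, while the median promoter peak was 2177 bp.

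Between lines, H3K4me3 at 1 of the 9 peaks was called in BrM2 against Par, that of PCDH17, and at 0 of 9 in LM2 against Par or BrM2 against LM2. Over all peaks tested, 3.61%, 2.51% and 3.18% were called in these comparisons. At an unadjusted p under 0.05, DESeq2 had 1, 2 and 3 of the 9 peaks, and edgeR called 1, 0 and 0. The share of all peaks was not taken for unadjusted p or edgeR, here or below. Such counts therefore cannot be set against all peaks. With the replicate block the members called were 3, 4 and 4 of 9, against 17.7%, 14.4% and 22.0% of all peaks. All 9 fitted differences were above 0 in LM2 against Par and 7 of 9 in BrM2 against Par, with median log2 fold changes of 0.49 and 0.36 beside 0.02 and -0.02 over all peaks. The comparisons with Par use the same Par libraries. In BrM2 against LM2 the median was -0.32 beside -0.04. CPM of the groups did not overlap at 5 of 9 peaks for LM2 against Par, 4 for BrM2 against Par and 6 for BrM2 against LM2, where 31.1%, 35.5% and 36.9% of all peaks did not.

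**Figure D1:**
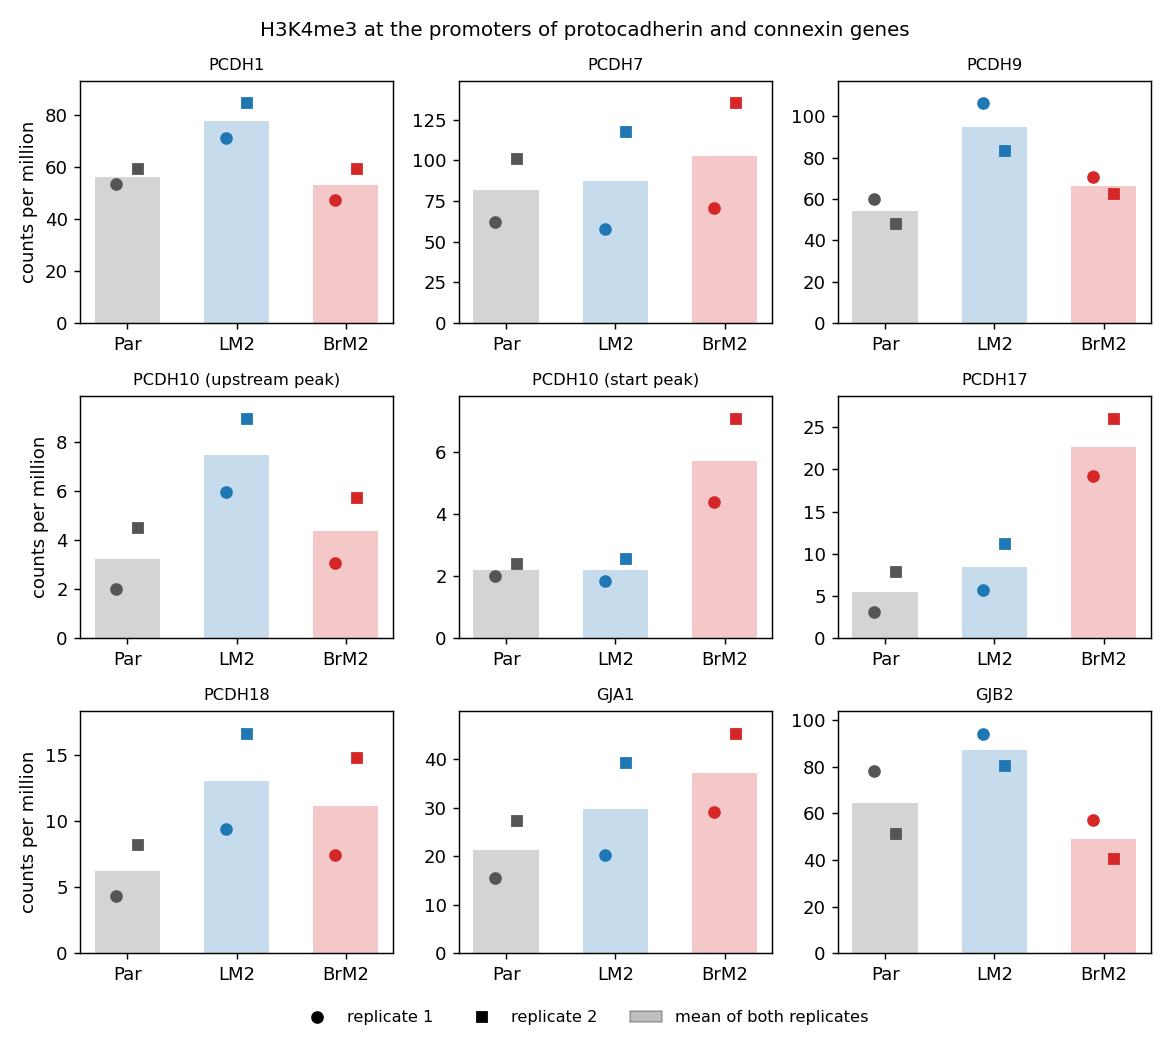
H3K4me3 in CPM (vertical axes, each panel with its own scale from 0) at the 9 promoter peaks in Par, LM2 and BrM2; circles are replicate 1, squares replicate 2 and bars the mean of both. PCDH17 stands at 19.2 and 26.0 CPM in BrM2, above the 4 libraries of Par and LM2.

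PCDH17, a δ2 protocadherin of synapses and a gene often silenced in tumours, rose in BrM2. Its promoter peak at chr13:58204814-58206523 had 3.15 and 7.89 CPM in Par, 5.74 and 11.2 CPM in LM2 and 19.2 and 26.0 CPM in BrM2. Both BrM2 libraries lay above all others, and Par and LM2 overlapped. The log2 fold change in BrM2 against Par was 1.96 ± 0.50 (SE; adjusted p = 0.0045, DESeq2), and edgeR gave an adjusted p of 0.0347. Against LM2, BrM2 was higher by 1.33 ± 0.48 (adjusted p = 0.118; 0.00125 with the replicate block). LM2 against Par gave 0.63 ± 0.51 (adjusted p = 1). The call against Par was lost without BrM2 replicate 1 (adjusted p = 0.106), BrM2 replicate 2 (0.23) or Par replicate 1 (0.221), with log2 fold changes of 1.58 to 2.07. PCDH17 was the only one of the 9 genes with no H3K27ac peak assigned to it.

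PCDH10, another δ2 protocadherin, differed in which of its promoter peaks was higher in which line. The peak over the start, chr4:134069717-134070723, had 2.01 and 2.38 CPM in Par, 1.84 and 2.54 CPM in LM2 and 4.36 and 7.06 CPM in BrM2. The upstream peak, chr4:134067213-134068851, had 2.01 and 4.47 CPM in Par, 5.97 and 8.94 CPM in LM2 and 3.06 and 5.70 CPM in BrM2. The BrM2 libraries were thus the highest at the start and the LM2 libraries the highest upstream. At the start the log2 fold change in BrM2 against Par was 1.31 ± 0.71 (adjusted p = 0.532), and upstream it was 1.21 ± 0.63 in LM2 against Par (adjusted p = 0.596). Neither passed the test in any comparison of either fit, and these were the lowest of the 9 peaks, with mean normalized counts of 18.7 and 28.2.

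PCDH18, the third δ2 member, had 4.30 and 8.19 CPM in Par, 9.41 and 16.6 CPM in LM2 and 7.42 and 14.8 CPM in BrM2 at chr4:138452921-138454266. Both LM2 libraries were above those of Par, and BrM2 overlapped with both in CPM, but not with Par on normalized counts. LM2 against Par gave 1.07 ± 0.51 (adjusted p = 0.494; 0.042 with the replicate block), and BrM2 against Par 0.75 ± 0.52 (adjusted p = 0.758).

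Among the δ1 protocadherins, PCDH7 carried a long promoter peak that passed the test in none of the comparisons. At chr4:30717965-30723653 it had 62.2 and 101 CPM in Par, 58.1 and 117 CPM in LM2 and 70.5 and 135 CPM in BrM2. In each line replicate 2 was the higher, and all lines overlapped. Its log2 fold change was 0.11 ± 0.37 in LM2 against Par, with a 95% interval of -0.62 to 0.85, and 0.26 ± 0.37 in BrM2 against Par, with an interval of -0.47 to 0.99. BrM2 against LM2 gave 0.15 ± 0.37, with an interval of -0.58 to 0.88. The adjusted p was at least 0.985 in these comparisons, and at least 0.227 with the replicate block.

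PCDH1, a protocadherin of airway epithelium, was highest in LM2. Its peak at chr5:141255234-141258943 had 53.3 and 59.3 CPM in Par, 71.2 and 84.5 CPM in LM2 and 47.4 and 59.1 CPM in BrM2. Both LM2 libraries exceeded the 4 others, and Par and BrM2 overlapped in CPM but not on normalized counts. The difference of LM2 from Par was 0.49 ± 0.32 (adjusted p = 0.844; 0.0163 with the replicate block) and BrM2 against LM2 -0.64 ± 0.31 (adjusted p = 0.413; 5.59e-04 with the block).

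PCDH9, a δ1 protocadherin of neurons, was also highest in LM2. Its peak at chr13:67802962-67806073 had 60.2 and 47.8 CPM in Par, 106 and 83.4 CPM in LM2 and 70.5 and 62.2 CPM in BrM2, with no overlap between lines in CPM. On the normalized counts of the test Par (386 and 247) and BrM2 (426 and 313) overlapped, and LM2 (706 and 435) lay above both. In LM2 the difference from Par was 0.85 ± 0.38 (adjusted p = 0.394; 1.23e-06 with the replicate block) and BrM2 against LM2 -0.63 ± 0.38 (adjusted p = 0.616; 5.71e-04 with the block). BrM2 against Par gave 0.23 ± 0.38 (adjusted p = 0.996; 0.304 with the block).

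GJA1, which encodes Cx43, the most widespread connexin, had 15.5 and 27.3 CPM in Par, 20.2 and 39.1 CPM in LM2 and 29.0 and 45.2 CPM in BrM2 at chr6:121756674-121759522. The BrM2 libraries lay above both Par libraries, whereas LM2 overlapped with each of the other lines. BrM2 against Par gave 0.74 ± 0.40 (adjusted p = 0.535; 0.0112 with the replicate block). LM2 against Par gave 0.49 ± 0.40 (adjusted p = 1; 0.157 with the block), and BrM2 against LM2 0.24 ± 0.39, with a 95% interval of -0.52 to 1.01.

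GJB2, which encodes Cx26, a connexin of epithelia and the inner ear, had the highest level per kb and was lowest in BrM2 by its mean. At chr13:20765687-20767717 it had 78.2 and 51.1 CPM in Par, 94.1 and 80.1 CPM in LM2 and 57.2 and 40.5 CPM in BrM2. LM2 lay above BrM2, and Par and BrM2 overlapped. LM2 exceeded Par in CPM, but overlapped with it on the normalized counts of the test (502 and 264 in Par, 625 and 417 in LM2). BrM2 against LM2 gave -0.93 ± 0.41 (adjusted p = 0.313; 4.17e-08 with the replicate block). LM2 against Par gave 0.45 ± 0.41 (adjusted p = 1; 0.0138 with the block) and BrM2 against Par -0.48 ± 0.41 (adjusted p = 0.895; 0.0287 with the block).

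**Figure D2:**
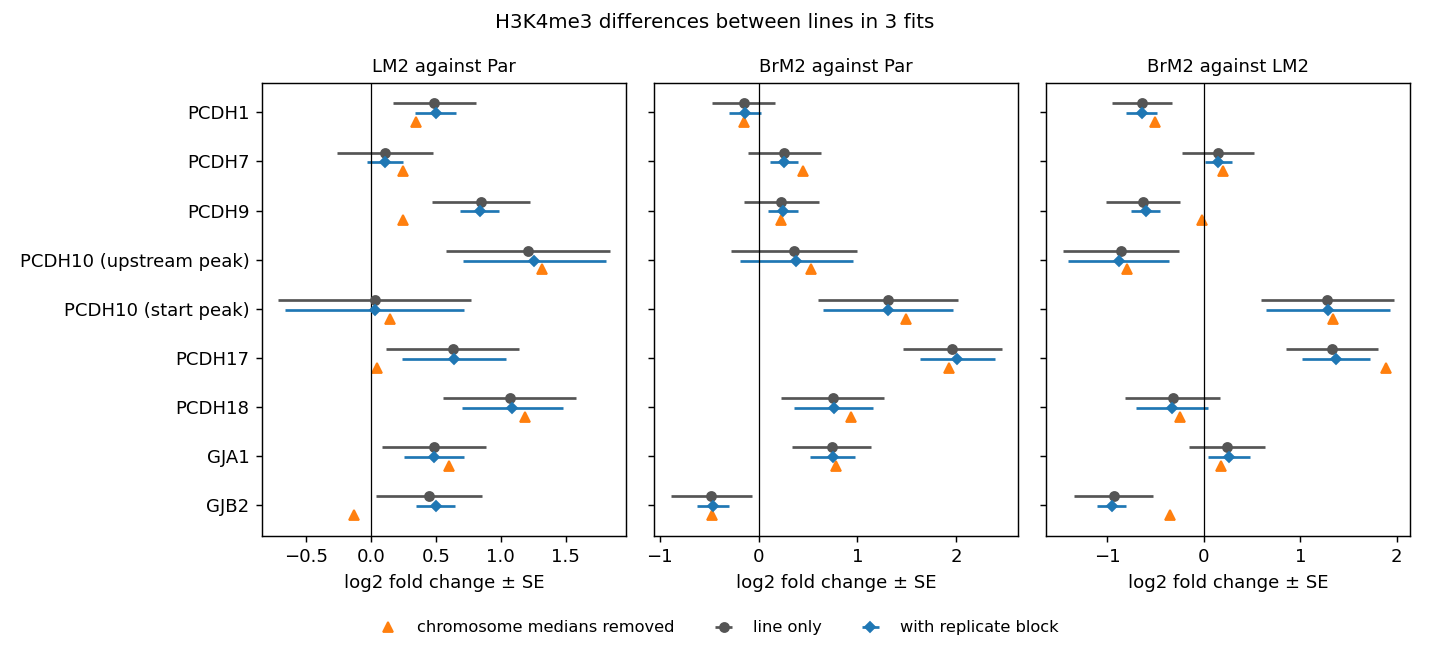
Log2 fold changes of H3K4me3 (horizontal axes) at the 9 promoter peaks for the 3 comparisons; grey circles are the fit by line, blue diamonds the fit with a replicate block, both ± SE, and orange triangles the fit after removal of chromosome medians, drawn without error. The values of PCDH9 and GJB2 in LM2 against Par go from 0.85 to 0.25 and from 0.45 to -0.13 when chromosome medians are removed.

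Chromosome 13 holds PCDH9, PCDH17 and GJB2, and H3K4me3 on it was shifted as a whole. Its median log2 fold change over 251 peaks of at least 50 normalized counts was 0.48 in LM2 against Par, -0.10 in BrM2 against Par and -0.59 in BrM2 against LM2, and H3K27ac gave 0.43, -0.01 and -0.46 over 454 peaks. Within 2 Mb of GJB2, 21 of 21 other H3K4me3 peaks and 24 of 27 H3K27ac peaks averaging 50 or more normalized counts were higher in LM2 than in Par. Around PCDH7, PCDH9 and PCDH17 no other peak of either mark reached that count within 2 Mb. After chromosome medians were removed, PCDH9 in LM2 against Par was 0.25 (adjusted p = 1) and BrM2 against LM2 was -0.02. GJB2 gave -0.13 in LM2 against Par, where the sign turned, and -0.35 in BrM2 against LM2 (adjusted p = 0.928). PCDH17 kept 1.93 in BrM2 against Par (adjusted p = 0.0148), and BrM2 against LM2 was 1.89 (adjusted p = 0.0142). Chromosome 4, with PCDH7, PCDH10 and PCDH18, had medians of -0.20 in LM2 and -0.21 in BrM2 against Par.

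Of 6 other protocadherins outside the clusters, PCDH8, PCDH12 and PCDH20 had an H3K4me3 promoter peak, and PCDH20 rose in both sub-populations. PCDH20, on chromosome 13, had 1.72 and 2.53 CPM in Par, 5.74 and 15.2 CPM in LM2 and 7.20 and 15.7 CPM in BrM2. Its log2 fold changes were 2.29 ± 0.63 in LM2 (adjusted p = 0.0159) and 2.34 ± 0.63 in BrM2 against Par (adjusted p = 0.00883), and 1.74 (adjusted p = 0.281) and 2.35 (adjusted p = 0.0248) after chromosome medians were removed. The list had 1 of 3 promoter peaks called in each comparison with Par and 0 of 3 in BrM2 against LM2, where 0 had an unadjusted p under 0.05. Over all peaks 2.51% were called in LM2 against Par and 3.61% in BrM2 against Par. In edgeR 0 were called in LM2 and 1 in BrM2 against Par. The replicate block called 2 of 3 higher in each sub-population, adding PCDH8, against 14.4% of all peaks in LM2 and 17.7% in BrM2. The medians of the list were 1.25, 1.02 and 0.05.

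Of 21 other connexins and pannexins, 7 had a promoter peak, and the lens connexin gene GJA3, next to GJB2, fell in BrM2 against LM2. GJA3 had 65.9 and 51.2 CPM in Par, 128 and 111 CPM in LM2 and 61.3 and 48.8 CPM in BrM2, for a difference of -1.22 ± 0.38 on the log2 scale (adjusted p = 0.0433) that was -0.63 (adjusted p = 0.389) after removal of chromosome medians. It was the only call of the list: none of the 7 passed in LM2 or BrM2 against Par, where 3 and 0 had an unadjusted p under 0.05. In edgeR 0 were called in each comparison. Over all peaks 3.18% were called in BrM2 against LM2. With the replicate block 3 of 7 were higher in LM2 and 1 in BrM2 against Par, and 2 were lower in BrM2 against LM2, beside 14.4%, 17.7% and 22.0% of all peaks. The medians were 0.59, -0.16 and -0.59.

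**Figure D3:**
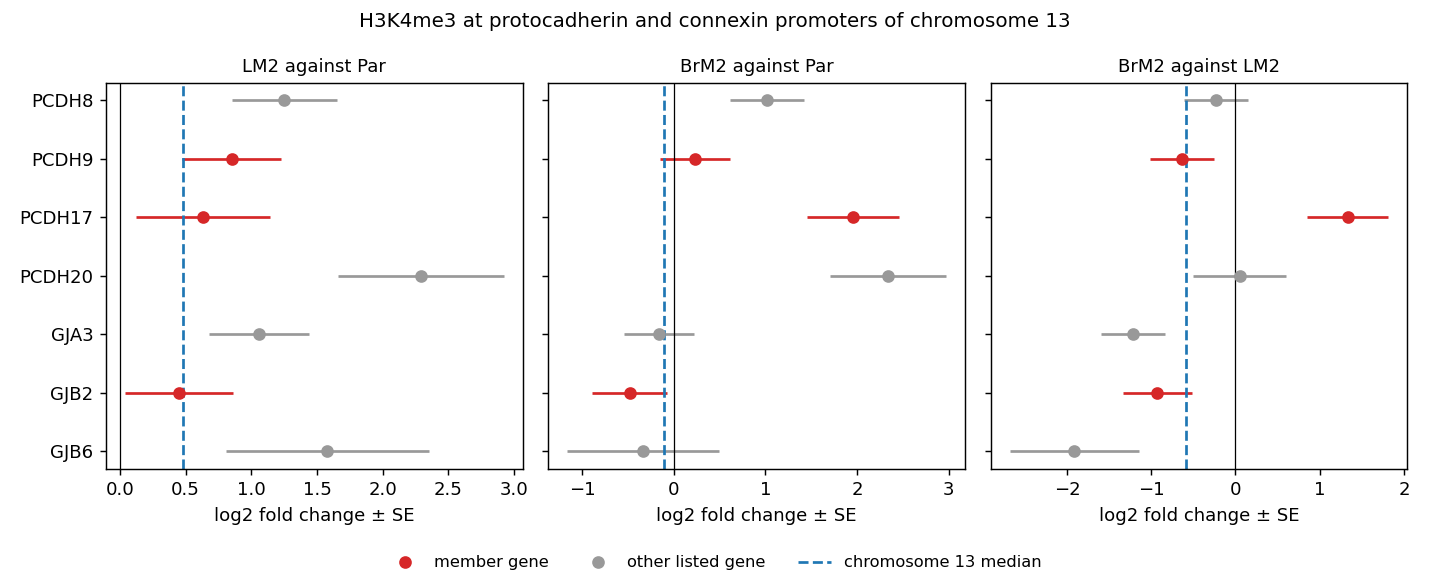
Log2 fold change of H3K4me3 ± SE (horizontal axes) at the 7 protocadherin and connexin promoters of chromosome 13 in the 3 comparisons; red points are PCDH9, PCDH17 and GJB2, grey points other listed genes, and the dashed line is the chromosome median. PCDH17 in BrM2 against LM2, at 1.33, lies far to the right of the median of -0.59.

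Proteins that act with these families at the membrane include the connexin 43 partner ZO-1 (TJP1), catenins, the WAVE complex subunits CYFIP1, NCKAP1, ABI1 and WASF1, and the PP1 catalytic subunit PPP1CA. Promoter peaks were found for 16 of these 17 genes, all but CDH2, and 0 of 16 were called by DESeq2 or edgeR in any comparison. After chromosome medians were removed DESeq2 called 1, the cadherin gene CDH11, which was lower in LM2 than in Par at -1.12 (adjusted p = 0.0139; 6.65e-07 with the replicate block and no removal). CDH11 had 65.3 and 82.4 CPM in Par, 34.9 and 40.5 CPM in LM2 and 55.7 and 67.5 CPM in BrM2. At an unadjusted p under 0.05 there were 2 in LM2 against Par, 2 in BrM2 against Par and 1 in BrM2 against LM2. The replicate block called 3 lower in LM2, 6 lower in BrM2, and 8 lower with 1 higher in BrM2 against LM2, where it called 14.4%, 17.7% and 22.0% of all peaks. The medians were -0.01, -0.31 and -0.31. In the cGAMP pathway, which runs from the sensor CGAS through STING1 and TBK1 to interferon and NF-κB responses, all 8 genes had a promoter peak and 0 of 8 were called by DESeq2 or edgeR, or had an unadjusted p under 0.05, in any comparison. With the block, 1, 2 and 1 of the 8 were lower in LM2 against Par, BrM2 against Par and BrM2 against LM2, beside the same shares of all peaks. The medians were -0.17, -0.14 and -0.09.

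H3K27ac peaks were spread unevenly over the genes. Of the 28 peaks, 6 belonged to PCDH7, 5 each to PCDH1 and PCDH9, 4 to GJC1, 3 to PCDH18, 2 each to GJA1 and GJB2, and 1 to PCDH10. DESeq2 called 1 of 28 in LM2 against Par, 2 in BrM2 against Par and 0 in BrM2 against LM2, where 3.63%, 5.29% and 2.94% of all tested peaks were called. Low counts left 9, 9 and 10 of the 28 without an adjusted p. In BrM2 against LM2, 3 had an unadjusted p under 0.05 and edgeR called 0. The replicate block called 1, 2 and 2 of 28, against 5.44%, 8.13% and 6.17% of all peaks. Median log2 fold changes were 0.50, 0.39 and -0.11 beside -0.02 over all peaks in each comparison. CPM of the groups did not overlap at 12, 14 and 10 of 28 peaks, against 43.0%, 50.3% and 47.2% of all peaks. The called peaks all lay in introns of protocadherin genes, and each call was lost when certain libraries were left out.

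**Figure D4:**
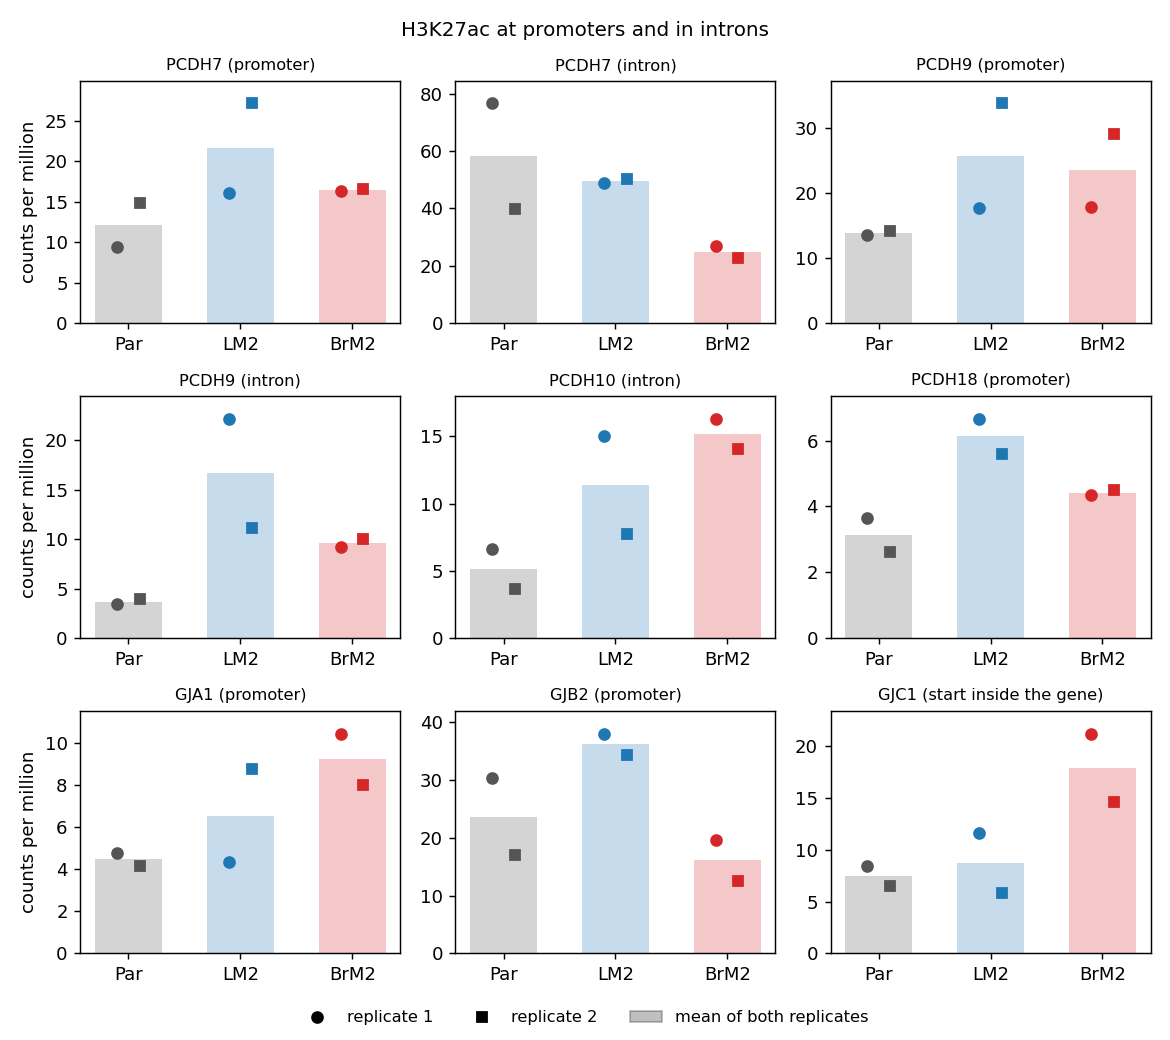
H3K27ac in CPM (vertical axes, each panel with its own scale from 0) at 9 peaks of 7 genes in Par, LM2 and BrM2; circles are replicate 1, squares replicate 2 and bars the mean of both. The intronic peak of PCDH7 has 26.8 and 22.6 CPM in BrM2, below the 4 libraries of Par and LM2.

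In PCDH7 an intronic H3K27ac domain fell in BrM2, and the H3K27ac peak at the promoter was not called. The domain at chr4:30753425-30761084, 7660 bp long and 27276 bp from the nearest start of the gene, had 76.6 and 39.9 CPM in Par, 48.8 and 50.3 CPM in LM2 and 26.8 and 22.6 CPM in BrM2. Both BrM2 libraries were the lowest, and LM2 lay between both Par libraries. The log2 fold change in BrM2 against Par was -1.23 ± 0.36 (adjusted p = 0.0175) and in BrM2 against LM2 -0.93 ± 0.36 (adjusted p = 0.156; 0.0306 with the replicate block). Without Par replicate 1 the first was -0.68 (adjusted p = 0.564), and the call was also lost without BrM2 replicate 1 (0.206), BrM2 replicate 2 (0.269) or LM2 replicate 1 (0.0519). After removal of chromosome medians the domain gave -1.11 in BrM2 against Par (adjusted p = 0.0287) and -1.11 in BrM2 against LM2 (adjusted p = 0.0449). The promoter peak, chr4:30718060-30722968, had 9.35 and 14.9 CPM in Par, 16.1 and 27.1 CPM in LM2 and 16.3 and 16.5 CPM in BrM2. There BrM2 against Par gave 0.45 ± 0.44 (adjusted p = 0.733). The other 4 peaks of PCDH7, all intronic, had at most 5.12 CPM in any library and none was called.

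In PCDH9 an intronic peak rose in LM2. At chr13:67507713-67509488, 29976 bp from a start inside the gene, it had 3.42 and 3.92 CPM in Par, 22.2 and 11.2 CPM in LM2 and 9.18 and 10.0 CPM in BrM2. Every library of the sub-populations was above Par. LM2 against Par gave 2.13 ± 0.52 (adjusted p = 0.00335), and 1.67 (adjusted p = 0.0471) after removal of chromosome medians. BrM2 against Par gave 1.39 ± 0.55 (adjusted p = 0.132). The LM2 call was lost without LM2 replicate 1 (1.57, adjusted p = 0.635), Par replicate 1 (0.138) or Par replicate 2 (0.0781). An H3K4me3 peak of 0.596 to 2.13 CPM lay inside the same region, at chr13:67508324-67508618. The PCDH9 promoter had 13.5 and 14.1 CPM of H3K27ac in Par, 17.7 and 33.8 CPM in LM2 and 17.8 and 29.1 CPM in BrM2. It gave 0.83 ± 0.42 in LM2 against Par (adjusted p = 0.386), and 0.36 (adjusted p = 0.94) after removal of chromosome medians.

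PCDH10 had 1 H3K27ac peak, in an intron at chr4:134108167-134110379, with 6.61 and 3.65 CPM in Par, 15.0 and 7.71 CPM in LM2 and 16.3 and 14.0 CPM in BrM2. Both sub-populations lay above Par and overlapped with each other. It rose in BrM2 against Par by 1.56 ± 0.52 (adjusted p = 0.0478), a call that was lost without any 1 of the 6 libraries, with log2 fold changes of 1.21 to 2.06 and adjusted p of 0.0751 to 0.568. LM2 against Par gave 1.09 ± 0.51 (adjusted p = 0.313).

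At the other promoters no H3K27ac difference was called in the fit by line. GJA1 had 4.79 and 4.18 CPM in Par, 4.34 and 8.78 CPM in LM2 and 10.4 and 8.02 CPM in BrM2. Its BrM2 libraries were above both Par libraries, with 1.06 ± 0.58 (adjusted p = 0.374). GJB2 had 30.3 and 17.0 CPM in Par, 38.0 and 34.3 CPM in LM2 and 19.6 and 12.5 CPM in BrM2. As for H3K4me3, LM2 lay above BrM2, with -1.07 ± 0.39 in BrM2 against LM2 (adjusted p = 0.121; 0.0207 with the replicate block) and -0.63 (adjusted p = 0.579) after removal of chromosome medians. PCDH18 had 3.65 and 2.61 CPM in Par, 6.67 and 5.58 CPM in LM2 and 4.33 and 4.51 CPM in BrM2, with 0.90 ± 0.63 in LM2 against Par (adjusted p = 0.65). PCDH1 had 2.96 and 7.57 CPM in Par, 3.41 and 3.99 CPM in LM2 and 5.10 and 6.01 CPM in BrM2 at an annotated start inside the gene, where LM2 and BrM2 each overlapped with Par. A further PCDH1 peak 1786 bp from the nearest start had 0.261 to 4.56 CPM.

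GJC1, which encodes Cx45, a connexin of conducting heart and vessels, carried H3K27ac without an H3K4me3 peak within 2 kb of a start. A peak over an annotated start inside the gene, chr17:42906481-42907117, had 2.74 and 0.522 CPM in Par, 3.10 and 2.13 CPM in LM2 and 4.84 and 2.51 CPM in BrM2. Another, 187 bp from a start further inside, chr17:42890860-42892412, had 8.44 and 6.53 CPM in Par, 11.6 and 5.85 CPM in LM2 and 21.2 and 14.5 CPM in BrM2. The BrM2 libraries were the highest, and BrM2 against Par gave 1.27 ± 0.48 (adjusted p = 0.112) and BrM2 against LM2 1.09 ± 0.47 (adjusted p = 0.245). The remaining peaks, an intronic one of 6119 bp and one of 6814 bp beside the gene, were the strongest of the gene at 33.0 to 98.4 and 37.8 to 73.6 CPM, and neither was called.

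The limits of 2 kb and 100 kb decided few members. The H3K4me3 peak just inside was the upstream PCDH10 peak at 1598 bp, and the next beyond was a peak 15236 bp from PCDH1, with 16.3 to 50.7 CPM and log2 fold changes of 0.06 in LM2 and 0.41 in BrM2 against Par. The farthest H3K27ac member lay 94916 bp from PCDH9, with 1.04 to 3.19 CPM, and the next beyond lay 119657 bp from PCDH9, with 2.35 to 5.05 CPM. Much farther out, 803385 bp from PCDH10 and outside the members, an H3K4me3 peak at chr4:133265485-133267064 had 0.287 and 1.19 CPM in Par, 0 and 0.711 CPM in LM2 and 17.0 and 26.0 CPM in BrM2. It was named after its values were seen. Its log2 fold change was 4.67 in BrM2 against Par (adjusted p = 8.42e-08) and 5.53 in BrM2 against LM2 (adjusted p = 1.44e-09).

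The promoters whose H3K4me3 pattern over the 6 libraries was most like that of GJA1 were ADPRHL1, the shared peak of CDC37 and PDE4A, IFT172, LGI2 and ABCB9. Likeness was the root mean square difference of centred log2(CPM + 1), which was 0.0413 for ADPRHL1 and 0.109 for ABCB9 against a median of 0.535 over 11804 promoter peaks. For PCDH7 they were CENPM, SMARCAL1, DLEC1, FXYD5 and TNNT1, at 0.0559 to 0.0676 against a median of 0.486. In all 10 the higher replicate of each line was replicate 2, as it was for GJA1 and PCDH7, so the likeness includes what same-numbered libraries share.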

How the data were processed

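The authors aligned ChIP-seq reads to hg19, removed low-quality and duplicate alignments, and called broad consensus peaks with MACS2 on merged libraries, so that a region marked in 1 line weighs less. Per the file headers, featureCounts 1.6.0 produced the deposited tables, whose values are raw counts of reads in each peak, not normalized by the authors. All 12 count columns matched a sample, and the 3 input samples were left out. Groups and replicates were read from the sample titles.

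Peaks were assigned with GENCODE release 44 on hg19. Differences were tested on the counts with the DESeq2 (1.42.0, R 4.3.3) Wald test. The study's methods name DESeq2, counts per replicate and an adjusted p under 0.05, and the other settings were chosen here: 6 libraries per mark in one fit, cell line as the only term, size factors by the median of ratios, log2 fold changes without shrinkage, default independent filtering and an adjusted p under 0.05 as a call. CPM used the total count in peaks. The scripts were tested on simulated data, with changes set in LM2 at peaks of at least 50 normalized counts. Of changes of 1 on the log2 scale, DESeq2 called 18% for H3K4me3 and 12% for H3K27ac. Of changes of 2 it called 95% and 88%. A peak that was not called can therefore still differ by a log2 change near 1. Of the members, 7 of 9 H3K4me3 and 7 of 28 H3K27ac peaks reached 50 normalized counts. The simulated shares do not cover the rest, where an uncalled peak can differ by more. Depth limits the precision at peaks of few counts.

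Replicate numbers in the titles were checked for pairing. After each line's mean was subtracted, libraries with the same number correlated across 13309 H3K4me3 peaks at r = 0.843 for Par with LM2, 0.788 for Par with BrM2 and 0.825 for LM2 with BrM2, and across 20124 H3K27ac peaks at 0.407, 0.607 and 0.48. A fit with the number as a block was therefore run beside the other.

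Alternatives were edgeR 4.0.16 with TMM, TMM factors in DESeq2, a minimum of 10 counts in 2 libraries, removal of chromosome medians, gene-level starts only, and each library left out. The genes, lists, motifs and tests were chosen with earlier results of these data known. Every H3K4me3 peak of the genes was named, H3K27ac peaks where called or within 2 kb of a start, and list genes where called with no overlap of CPM between groups. Sequences came from RefSeq and GRCh37, on which 0 peaks ended beyond a chromosome. The sequence of the called PCDH9 H3K27ac peak is not reported here.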

Additional observations from a re-analysis of the deposited data

How the results depend on the processing

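Counts of called peaks among the 9 H3K4me3 and 28 H3K27ac peaks were the same with edgeR, with TMM factors and with a low-count filter. That filter kept 23 of the 28 H3K27ac peaks. The replicate block moved the H3K4me3 count from 0 to 4 in LM2 against Par, from 1 to 3 in BrM2 against Par and from 0 to 4 in BrM2 against LM2, and the H3K27ac count in BrM2 against LM2 from 0 to 2. It changed no other count of calls. Removal of chromosome medians moved the count in BrM2 against LM2 from 0 to 1 for each mark, through PCDH17 for H3K4me3 and the intronic PCDH7 domain for H3K27ac. The share of all peaks called in that fit was not taken. With gene-level starts only, the H3K27ac count in LM2 against Par was 0 in place of 1, since the intronic PCDH9 peak lies near a start inside the gene and was no longer a member. With 1 library left out, H3K4me3 counts in BrM2 against Par ranged from 0 to 1, and H3K27ac counts from 0 to 1 in LM2 against Par and from 0 to 1 in BrM2 against Par, where the full count was 2. The lone library of a line was then assumed to vary like those of the other lines. Of 63 named differences, 12 gained a call with the block and 2 with chromosome medians removed. Few of the 63 were called in the fit by line, and each such call was lost when certain libraries were left out. The cause of these changes was not tested. Low counts left 9 to 10 of the 28 H3K27ac peaks without an adjusted p.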
